A study of Mus musculus with 2 samples.

Results

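The genes described here encode nuclear subunits of the mitochondrial respiratory chain, measured by RNA-seq in mouse optic nerve at postnatal day 12 (P12). They were chosen by symbol: names of the Nduf, Sdh, Uqcr, Cox4 to Cox8 and Atp5 series were taken from the gene names of both deposited tables, merged names were split, and the levels of rows with the same symbol were summed. This gave 84 of the 23951 gene names found in both tables, of which 37 belonged to complex I by name and the others to complexes II to V. The control library came from mice with 1 floxed *Tcf7l2* allele (genotype Tcf7l2 c/+; OLig1-cre) and the mutant library, *Tcf7l2*ΔHMG, from mice with both alleles floxed (Tcf7l2 c/c; OLig1-cre), so both groups carried the *Olig1*-Cre driver of the oligodendrocyte (OL) lineage and at least 1 floxed allele. Cre removes exon 11, the exon of the HMG box through which Tcf7l2 binds DNA. The reading frame stays intact, and the recombined cells can still make the shortened mRNA. Cells of the nerve in which Cre was not active keep the exon. There was 1 library per genotype, and the number of animals behind each is not given in the sources used here.

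Complexes I to IV pass electrons from NADH and succinate to oxygen and, apart from complex II, pump protons out of the mitochondrial matrix. Complex V, the ATP synthase, uses the return flow of protons to make ATP. Complexes I, III, IV and V also contain subunits encoded by mitochondrial DNA, whereas the subunits listed here are encoded in the nucleus, made in the cytoplasm and imported. Optic nerve holds axons, myelinating OLs, astrocytes and other glia, which are known to differ in how far they rely on respiration and on glycolysis.

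Values are FPKM, fragment counts scaled by transcript length and library depth, which correct for length and allow levels of different genes to be compared. The depth was 27624000 fragments in the control against 39938000 in the mutant, so that a transcript of 1 kb with 3 fragments would have 0.109 and 0.0751 FPKM. Log2 ratios are of mutant FPKM plus 0.1 to control FPKM plus 0.1, and genes with at least 1 FPKM in at least 1 library were compared (14199 of 23951 names, and 82 of the 84 respiratory chain genes). With 1 library per genotype, no spread between animals and no p-value could be computed, and a fold change above 1.5 is used as a mark of size only. *Tcf7l2* itself was at 17.8 FPKM in the control against 14.6 in the mutant (log2 ratio −0.28). The value covers the whole gene and is no check of the deleted exon. The 7 OL markers were all lower in the mutant, from a sum of 30456 to 17544 FPKM (median log2 ratio −0.83), while the 6 haemoglobin and *Alas2* entries were all higher (295 to 735 FPKM in sum), with *Hba-a1* and *Hba-a2* sharing the same value, as did *Hbb-b1* and *Hbb-bs*. In whole nerve, fewer cells of a type and less RNA per cell cannot be told apart.

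The promoters of the highest and lowest log2 ratios are shown first, because the mutant Tcf7l2 lacks the domain that reads DNA. They were picked by measured ratio and illustrate these genes only. Each stretch holds the 200 bases before the annotated start of the gene (RefSeq, GRCm38.p6), 5′ to 3′ on the strand of the gene. *Ndufa3* lies at chr7:3617173-3617372 on the plus strand and *Cox6b2* at chr7:4753095-4753294 on the minus strand, the 2 highest ratios. The 2 lowest, *Ndufs6* at chr13:73328483-73328682 and *Ndufs4* at chr13:114388095-114388294, are both on the minus strand. Capitals mark exact matches, on either strand, to 5 motifs described next.
Ndufa3: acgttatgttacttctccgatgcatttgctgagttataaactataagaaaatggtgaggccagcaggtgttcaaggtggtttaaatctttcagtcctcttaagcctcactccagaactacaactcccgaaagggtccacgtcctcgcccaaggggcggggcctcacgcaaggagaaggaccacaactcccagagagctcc
Cox6b2: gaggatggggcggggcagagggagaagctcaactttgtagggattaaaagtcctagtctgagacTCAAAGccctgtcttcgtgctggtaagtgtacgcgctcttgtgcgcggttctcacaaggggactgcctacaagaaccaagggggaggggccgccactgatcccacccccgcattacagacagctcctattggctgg
Ndufs6: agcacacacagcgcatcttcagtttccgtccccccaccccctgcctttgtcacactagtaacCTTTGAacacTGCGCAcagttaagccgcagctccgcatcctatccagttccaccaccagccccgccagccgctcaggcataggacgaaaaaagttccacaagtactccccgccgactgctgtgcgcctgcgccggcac
Ndufs4: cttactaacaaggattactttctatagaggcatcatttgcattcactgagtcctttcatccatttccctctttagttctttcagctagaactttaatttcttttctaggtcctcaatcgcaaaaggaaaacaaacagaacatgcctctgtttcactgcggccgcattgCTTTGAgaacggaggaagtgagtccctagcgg

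The motifs searched on both strands were TCAAAG (the core of TCF and LEF factors), TGCGCA (the palindromic core of NRF1), CCGGAAG (ETS factors such as GABPA), AAGATGGC (YY1) and TCAAGGTCA (oestrogen-related receptors). Matches can share the letters AAG, which end TCAAAG and CCGGAAG and begin AAGATGGC. A promoter entry of 250 bases before to 50 after the start was found for 69 of the 84 genes, 3 of them under a newer symbol. The TCF and LEF core was in 8 of these 69 promoters (11.6%), compared with 14.3% of the promoters of 10227 other compared genes. The capitals show a match in *Cox6b2*, *Ndufs6* and *Ndufs4*, so that a match was present at both ends of the range of ratios, and the 8 genes with a match had a median log2 ratio of 0.22, as did the 60 compared genes without one.

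Other motifs were chosen for factors known at nuclear respiratory genes. NRF1 and GABPA are activators of many such genes, and YY1 and the oestrogen-related receptors act at some of them. The NRF1 core was in 18 promoters (26.1%, against 15.4% of the others), and *Ndufs6* shows it in capitals. The YY1 core was in 11 (15.9% against 4.93%), among them *Ndufa3*, *Ndufs6* and *Ndufs4*, in which the match lay outside the printed bases. The ETS core was in 16 (23.2% against 18.5%) and the oestrogen-related receptor element in 2 (2.90% against 0.332%). The median log2 ratio was 0.09 with the NRF1 core and 0.26 without it, 0.05 and 0.23 for the ETS core, and 0.07 and 0.25 for the YY1 core.

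The comparison of the libraries asks how genes of optic nerve differ when OL-lineage cells lack the DNA-binding domain of Tcf7l2. Respiratory chain genes were abundant in both libraries, with a median of 101 FPKM in the control against 112 FPKM in the mutant over the 82 compared genes, against 9.62 and 9.96 FPKM over all compared genes. Summed over the 82 genes, FPKM was 11447 in the control against 13370 in the mutant, a ratio of 1.17. The log2 ratio had a median of 0.19, and 54 genes were higher and 28 lower in the mutant (65.9% higher, against a background of 54.6% of all compared genes). All compared genes had a median of 0.05. These directions, and all those given below, are on the deposited FPKM scale: setting the sum of all rows equal in both libraries, unnamed rows included, shifted the median to −0.61 over all compared genes and to −0.49 over the respiratory chain genes, of which 5 were then higher. The distance between the medians was 0.14 before and 0.12 after that shift. Such a rescaling moves both medians alike apart from the pseudocount, so the distance is no check of it.

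Of the respiratory chain genes, 90% had log2 ratios from −0.37 to 0.67. The same span ran from −0.83 to 1.18 for all compared genes, which include many of low level, and from −0.36 to 0.69 for cytoplasmic and −0.41 to 0.49 for mitochondrial ribosomal protein genes, which are closer to them in kind. Above 1.5-fold, 8 genes (9.76%) were higher and 0 were lower. The background was 15.4% of all compared genes higher and 8.52% lower by the same measure, so that both shares were below it on the deposited values. The order of the higher shares turned with interval midpoints (23.2% of the 82 genes, against 15.8% of all) and among genes inside their own Cufflinks intervals (5 of 28, 17.9%, against 14.7%). Ratios within 0.1 of 0 were found for 18 genes.

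**Figure D1:**
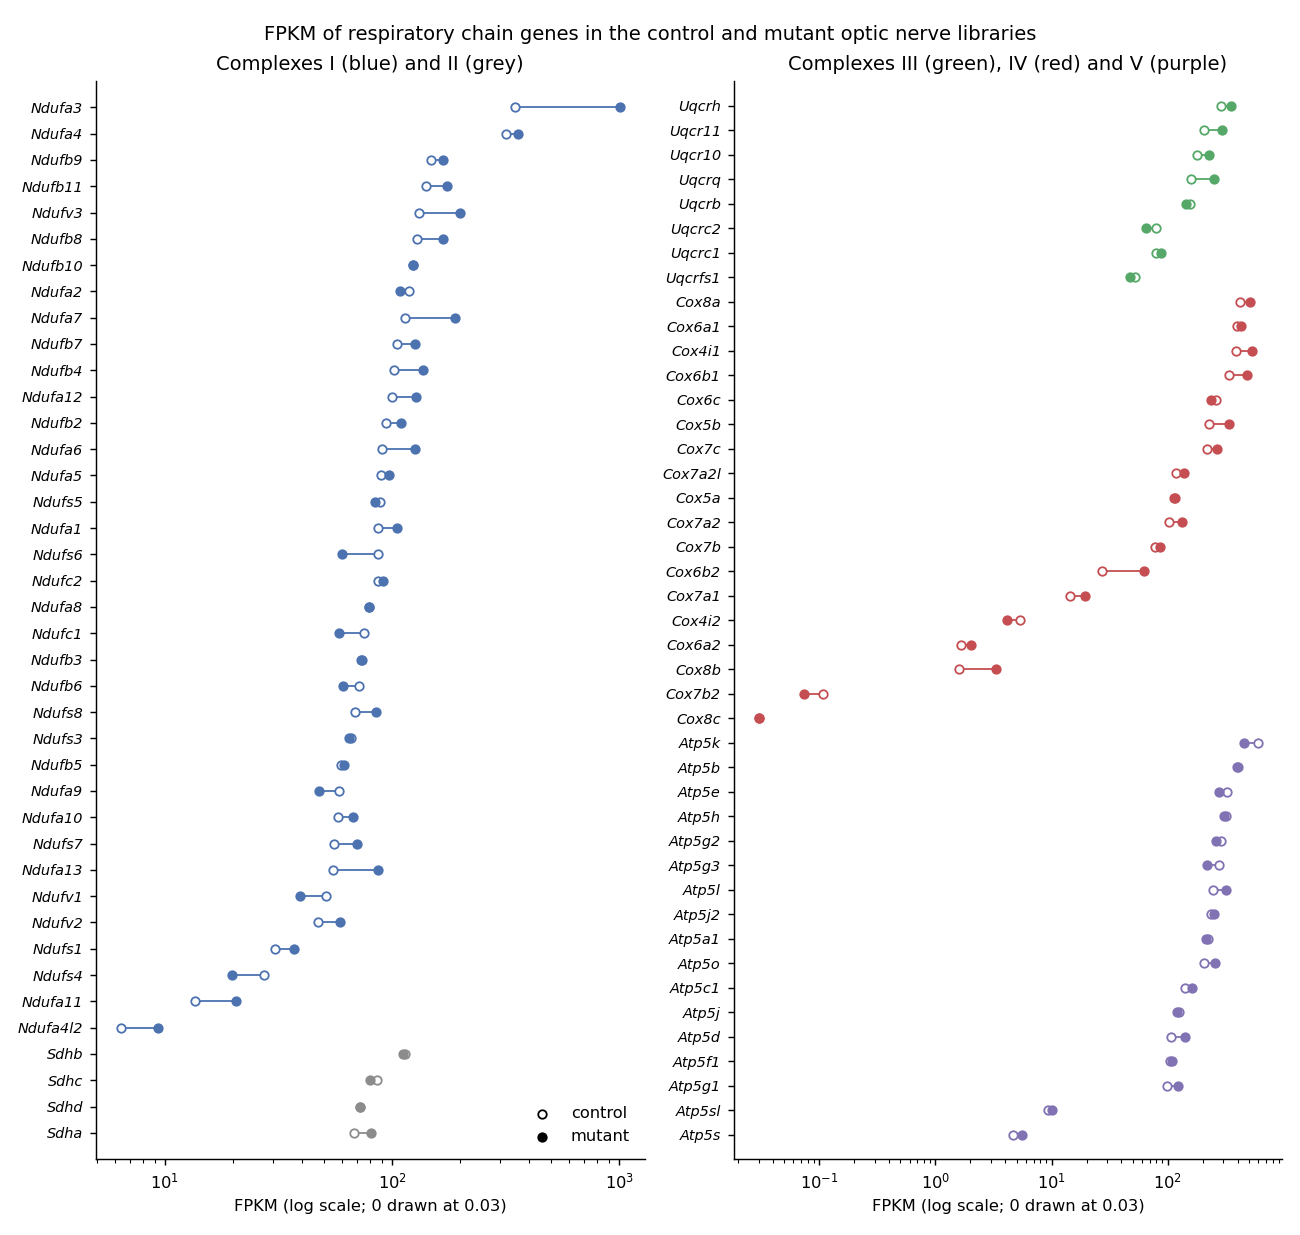
FPKM (log scale) of respiratory chain genes in the control library (open circles) and the mutant library (filled circles), coloured by complex. The symbols of most genes lie close together, *Ndufa3* is separated most among abundant genes (349 to 1004 FPKM), and *Cox8c* is listed at 0 in both.

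Complex I (NADH dehydrogenase), the entry point of electrons from NADH, held 37 compared genes with a median log2 ratio of 0.22. Of these, 26 were higher and 11 lower in the mutant (70.3% higher, against 54.6% of all compared genes). Past 1.5-fold, 5 were higher (13.5%, against 15.4% of all compared genes) and 0 lower (against 8.52%). The summed FPKM was 3498 in the control against 4595 in the mutant (1.31-fold), but *Ndufa3* alone made much of this difference, and without it the sums were 3149 and 3591 (1.14-fold). The rule counts *Ndufa4* and its relative *Ndufa4l2* here by name, although NDUFA4 is now placed in complex IV. Leaving out both gave the same median of 0.22, and adding both to complex IV left its median at 0.28.

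*Ndufa3*, an accessory subunit of the membrane arm, had the highest ratio of all 82 genes, with 349 FPKM in the control against 1004 FPKM in the mutant (log2 ratio 1.52). The files place it on chromosome 7 from 3568975 to 3571763 (mm9). The control value lay far above its own Cufflinks confidence interval (143 to 162 FPKM), while the mutant value lay inside its interval (931 to 1078 FPKM). With the midpoints of the intervals in place of the FPKM, the log2 ratio would be 2.72. The direction was the same by both measures, but the size was not settled by these tables. The neighbour *Tfpt*, which the files place 162 bases away, was at 10.7 and 13.3 FPKM (log2 ratio 0.31).

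A further 4 accessory subunits of complex I passed 1.5-fold. *Ndufa7*, of the peripheral arm, was at 114 FPKM in the control against 189 FPKM in the mutant (log2 ratio 0.72), each inside its interval. It lies on chromosome 17 from 33961517 to 33975261, at 73 bases from *Rps28*, a ribosomal protein gene that was at 764 and 1142 FPKM (log2 ratio 0.58). *Ndufv3*, a small subunit beside the NADH-binding flavoprotein, was at 131 and 198 FPKM (log2 ratio 0.60, chromosome 17 from 31657060 to 31668270). These values were also inside their intervals, which did not overlap.

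*Ndufa11*, a membrane arm subunit, was at 13.6 FPKM in the control against 20.5 FPKM in the mutant (log2 ratio 0.59), the lowest level of the 5. It is on chromosome 17 from 56857185 to 56863671, at 62 bases from *Vmac* (log2 ratio 0.33). *Ndufa13*, which is also known as GRIM-19 and has been linked to cell death, was at 54.8 and 87.0 FPKM (log2 ratio 0.66, chromosome 8 from 72418081 to 72426457), with both values above their own intervals. Its span overlaps that of *Tssk6*, which was listed at 0 in both libraries.

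The 7 core subunits encoded in the nucleus, which bind the flavin and the iron-sulphur clusters or line the quinone site, had a median log2 ratio of 0.27, and none passed 1.5-fold. *Ndufs7* (55.3 and 70.0 FPKM, log2 ratio 0.34), *Ndufv2* (47.0 and 59.0, 0.33), *Ndufs8* (68.5 and 84.8, 0.31) and *Ndufs1* (30.6 and 36.9, 0.27) were higher in the mutant. *Ndufs3* was nearly level (66.3 and 64.7 FPKM, log2 ratio −0.03). *Ndufv1*, the NADH-binding flavoprotein, was lower, at 51.4 FPKM in the control against 39.5 FPKM in the mutant (log2 ratio −0.38). Thus *Ndufv1* and *Ndufv3*, whose products sit side by side in the same module, had ratios of opposite sign.

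The 28 accessory subunits had a median log2 ratio of 0.19, and held both the highest and the lowest ratio of the complex. Of them, 19 were higher and 9 lower (67.9% higher, against 54.6% of all compared genes). *Ndufs6*, a zinc-binding subunit added late in assembly, had the lowest ratio, from 86.7 FPKM in the control to 60.2 FPKM in the mutant (log2 ratio −0.52, chromosome 13 from 73457324 to 73465930). *Ndufs4*, a peripheral subunit whose loss causes Leigh-like disease, was at 27.3 and 19.7 FPKM (log2 ratio −0.47). For both genes the intervals did not overlap, though they cover counting within 1 library and not differences between animals. By position in the complex, the 16 subunits of the peripheral arm had a median of 0.20 and the 19 of the membrane arm a median of 0.22. The summed FPKM of the membrane arm was 1.44-fold higher in the mutant, and 1.13-fold without *Ndufa3*.

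The remaining accessory subunits formed a continuous range. In the peripheral arm, *Ndufa6*, a subunit of the LYR family near the quinone site, was at 90.4 and 126 FPKM (log2 ratio 0.47). *Ndufa12* was at 99.5 and 127 FPKM (log2 ratio 0.35). *Ndufa5* (log2 ratio 0.13) and *Ndufa2* (−0.12) differed less, and *Ndufa9*, which holds a nucleotide at the foot of the arm, was lower in the mutant (58.6 and 47.9 FPKM, −0.29).

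In the membrane arm, the higher side was led, after the genes past 1.5-fold, by *Ndufb4* (102 and 137 FPKM, log2 ratio 0.42) and *Ndufb8* (129 and 167 FPKM, 0.38). *Ndufb11* (0.31) and *Ndufa1* (0.28), both X-linked genes known from inherited complex I disease, *Ndufb7* (0.26), *Ndufb2* (0.22), *Ndufa10* (0.22) and *Ndufb9* (0.17) followed. The lower side held *Ndufc1* (75.1 and 58.2 FPKM, −0.37) and *Ndufb6* (71.4 and 60.6 FPKM, −0.24). *Ndufc2*, *Ndufb5*, *Ndufb3*, *Ndufa8*, *Ndufb10* and *Ndufs5* lay between, with log2 ratios from −0.07 to 0.08. *Ndufc1* and *Ndufc2*, whose products bind each other in the complex, thus did not share a ratio.

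Complex II (succinate dehydrogenase), which also belongs to the citric acid cycle and has no subunit encoded by mitochondrial DNA, had log2 ratios between −0.09 and 0.25. The 4 genes summed to 339.7 FPKM in the control against 345 FPKM in the mutant (1.02-fold), with a median log2 ratio of −0.01. *Sdha*, the flavoprotein, was at 68.3 and 81.1 FPKM (log2 ratio 0.25). *Sdhb*, the iron-sulphur subunit, was at 113 and 112 FPKM (log2 ratio −0.02). The membrane anchors *Sdhc* (85.7 and 80.4 FPKM, log2 ratio −0.09) and *Sdhd* (72.3 and 72.1, −0.0032) were also close to level. With 4 genes the median rests on few values, and *Sdha* alone lay away from the other three.

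Complex III (cytochrome bc1) had a median log2 ratio of 0.23 over 8 genes, with 5 higher and 3 lower (62.5% higher, against 54.6% of all). The small subunits *Uqcrq*, *Uqcr11*, *Uqcr10* and *Uqcrh* had log2 ratios between 0.29 and 0.67. *Uqcrq*, named for ubiquinone binding, was at 157 FPKM in the control against 251 FPKM in the mutant (log2 ratio 0.67, chromosome 11 from 53242450 to 53244333), and was the only gene of the complex past 1.5-fold. Its intervals were wide and overlapped (145 to 283 FPKM and 242 to 316 FPKM). *Uqcr11* was at 207 and 296 FPKM (log2 ratio 0.51), *Uqcr10* at 178 and 229 FPKM (log2 ratio 0.37), and *Uqcrh*, the hinge protein at the cytochrome c site, at 288 and 352 FPKM (log2 ratio 0.29).

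The other 4 genes of complex III lay lower. *Uqcrc1*, a large core protein facing the matrix, was at 78.8 and 88.3 FPKM (log2 ratio 0.17), whereas its partner *Uqcrc2* was at 79.6 and 64.8 FPKM (log2 ratio −0.30), the lowest of the complex. *Uqcrfs1*, the Rieske iron-sulphur protein, had a log2 ratio of −0.16, and *Uqcrb*, another small subunit, one of −0.13. The 2 core proteins, which form a pair in the complex, were thus nearly equal in the control against differed in the mutant.

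Complex IV (cytochrome c oxidase), which passes electrons to oxygen, had a median log2 ratio of 0.28 over 16 compared genes, the highest of the 5 complexes on the deposited values. Among genes inside their own intervals, complex IV was at 0.25 (4 genes) and complex III at 0.48 (2 genes). Of the 16 compared genes, 13 were higher and 3 lower in the mutant (81.25% higher, against 54.6% of all compared genes). The sums were 2714 FPKM in the control against 3348 FPKM in the mutant (1.23-fold). Without the forms known to be restricted to some tissues, the median over 11 genes was still 0.28. *Cox5b*, which binds zinc on the matrix side, was just under the mark of 1.5-fold, with 225 and 334 FPKM (log2 ratio 0.57), but the mutant value lay above its own interval (209 to 226 FPKM). With interval midpoints its ratio would be −0.05. *Cox5a*, its partner subunit, was at 116 and 113 FPKM (log2 ratio −0.04), and *Cox6c* at 263 and 238 FPKM (log2 ratio −0.14). *Cox7c*, a small membrane subunit, was at 219 and 267 FPKM (log2 ratio 0.29).

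**Figure D2:**
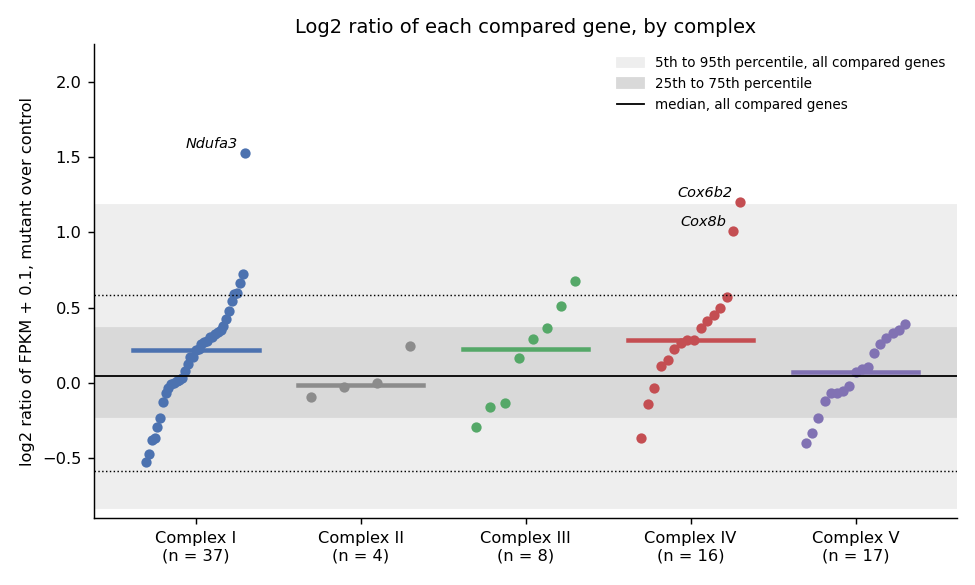
Log2 ratio of mutant to control (FPKM plus 0.1) for each compared gene of complexes I to V. Points are genes, coloured bars are medians of a complex, the grey bands and black line give the percentiles and median of all 14199 compared genes, and dotted lines mark 1.5-fold. Medians ran from −0.01 in complex II to 0.28 in complex IV, and no gene lies below the lower dotted line.

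Several subunits of complex IV occur in paralogous forms, a widely expressed one and another known from heart and skeletal muscle, lung or testis. The 7 widely expressed forms (the 6 of complex IV named here and *Ndufa4*) were all higher in the mutant, with log2 ratios between 0.11 and 0.50. *Cox6b1* was at 338 FPKM in the control against 478 FPKM in the mutant (log2 ratio 0.50). *Cox4i1*, which binds ATP as a regulator, was at 387 and 529 FPKM (log2 ratio 0.45), and *Cox7a2* at 102 and 132 FPKM (log2 ratio 0.37). *Cox8a*, the most abundant gene of complex IV by mean, was at 423 and 515 FPKM (log2 ratio 0.28), while *Cox6a1* was at 393 and 425 (0.11) and *Cox7b* at 78.0 and 86.7 (0.15).

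Of the restricted forms, *Cox6b2*, known from testis, was the most abundant. It was at 27.3 FPKM in the control against 62.9 FPKM in the mutant (log2 ratio 1.20, chromosome 7 from 4703394 to 4704696), each inside its interval. Its share of the Cox6b pair was 7.47% in the control against 11.6% in the mutant. A row with no gene name lies within its span in both libraries, so fragments may have been divided between the rows. *Cox8b*, the heart and muscle form, was at 1.59 and 3.30 FPKM (log2 ratio 1.01), with a control interval from 0 to 44.5 FPKM, so that its direction is not settled by these values.

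The other restricted forms were below their widely expressed relatives. *Cox7a1*, of heart and muscle, was at 14.5 and 19.2 FPKM (log2 ratio 0.41), 6.17% and 6.65% of the sum of *Cox7a1*, *Cox7a2* and *Cox7a2l*. Its control value lay above its interval (5.14 to 9.30 FPKM), and with midpoints the ratio would be 1.40. *Cox4i2*, which is induced by low oxygen in lung, was lower in the mutant, at 5.40 and 4.17 FPKM (log2 ratio −0.37), 1.38% and 0.781% of the Cox4i pair. *Cox6a2*, of heart and muscle, was at 1.67 and 2.03 FPKM (log2 ratio 0.26), and its span overlaps that of *Itgad*. The testis forms were the 2 genes not compared: *Cox7b2* was at 0.107 and 0.0739 FPKM, below the value of 3 fragments on 1 kb in both libraries, and *Cox8c* was listed at 0 in both.

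*Cox7a2l*, which acts in joining complexes III and IV into supercomplexes, was at 118 and 139 FPKM (log2 ratio 0.23). *Ndufa4* was at 318 and 358 FPKM (log2 ratio 0.17), and *Ndufa4l2*, a relative that is induced by low oxygen, at 6.38 and 9.33 FPKM (log2 ratio 0.54). The form with the highest FPKM of each subunit was the same in both libraries. Of 10 skeletal muscle markers, 3 reached 1 FPKM: *Acta1* (10.5 and 12.4 FPKM), *Mylpf* (2.17 and 2.18) and *Tnnt3* (2.76 and 4.28). The other markers, *Ckm* and the Myh genes among them, were at or below 0.458 FPKM in both libraries. The part of muscle cells in these values was not tested.

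**Figure D3:**
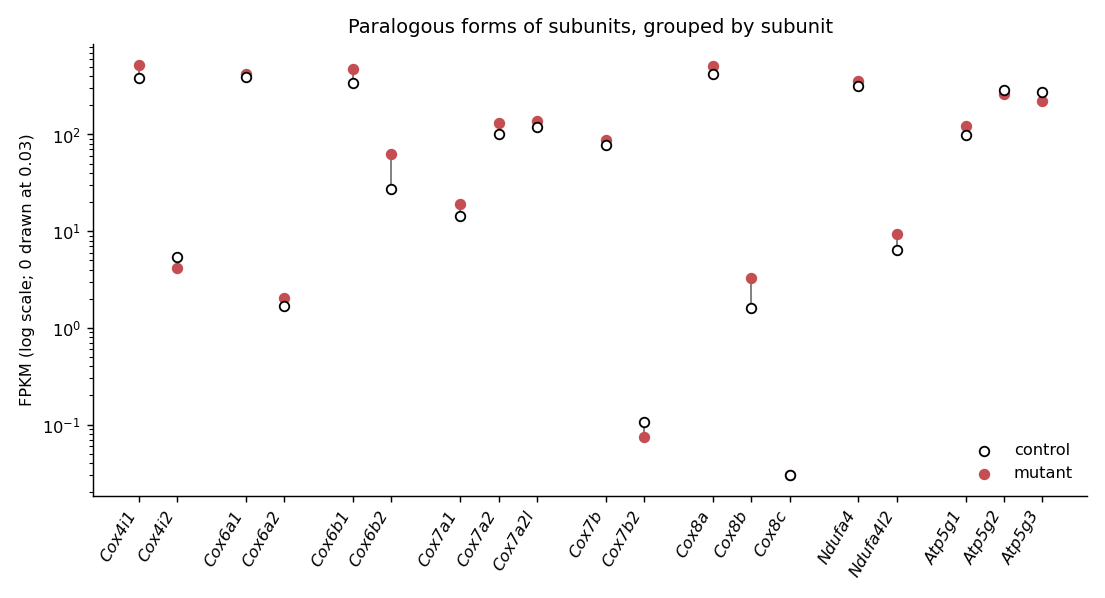
FPKM (log scale, with 0 drawn at 0.03) of paralogous subunit forms in the control library (open circles) and the mutant library (red circles), grouped by subunit. The widely expressed form lies far above its restricted relatives in most families, with *Cox6b2* and *Cox7a1* closest to theirs, and the 3 genes of the c ring are of like level.

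Complex V (ATP synthase) had the highest levels in the control, a sum of 3698 FPKM, and was the only complex whose sum was lower in the mutant, at 3612 FPKM (0.977-fold). Without *Atp5k* the sums were 3104 and 3162 FPKM (1.02-fold), so that the direction of the sum rested on 1 gene. The median log2 ratio over 17 genes was 0.07, with 9 higher and 8 lower and no gene past 1.5-fold in either direction. *Atp5s* (4.63 and 5.56 FPKM) and *Atp5sl* (9.41 and 10.1 FPKM) carry the name but are not subunits of the enzyme, and without them the median was −0.02. The share of complex V in the FPKM of all respiratory chain genes was 32.3% in the control against 27.0% in the mutant, whereas that of complex I was 30.6% and 34.4%. The shares of complexes II (2.97% and 2.58%), III (10.5% and 11.0%) and IV (23.7% and 25.04%) differed less. Without *Ndufa3*, the share of complex I was 28.4% and 29.0%, that of complex IV 24.5% and 27.1%, and that of complex V 33.3% and 29.2%, so that the difference for complex I rested mostly on this gene.

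Within complex V, the catalytic F1 head gave both signs. *Atp5b*, the catalytic beta subunit, was at 401 FPKM in the control against 395 FPKM in the mutant (log2 ratio −0.02), and *Atp5a1*, the alpha subunit, at 222 and 212 FPKM (log2 ratio −0.07). *Atp5d*, the delta subunit of the central stalk, had the highest ratio of the complex (107 and 141 FPKM, log2 ratio 0.39), while *Atp5e*, the epsilon subunit that sits beside it, was at 322 and 274 FPKM (log2 ratio −0.23). *Atp5c1*, the gamma subunit that forms the rotating shaft, was at 141 and 162 FPKM (log2 ratio 0.20). The 5 F1 genes summed to 1193 and 1184 FPKM (0.992-fold).

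The c ring, which turns as protons pass, is made from identical peptides encoded by 3 genes. *Atp5g1* was higher in the mutant, at 98.2 FPKM in the control against 123 FPKM in the mutant (log2 ratio 0.33). *Atp5g2* was at 286 and 263 FPKM (log2 ratio −0.12) and *Atp5g3* at 276 and 219.6 FPKM (log2 ratio −0.33). The share of *Atp5g1* in their sum was thus 14.9% in the control against 20.4% in the mutant, and that of *Atp5g3* was 41.8% and 36.3%. The sum of the 3 genes was 660.0 and 605 FPKM (0.917-fold).

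Of the other membrane and stalk subunits, *Atp5k* (subunit e, which helps to pair ATP synthases) had the lowest ratio of the complex. It was at 593 FPKM in the control against 449.6 FPKM in the mutant (log2 ratio −0.40, chromosome 5 from 108862272 to 108863397), and the mutant value lay far above its own interval (137 to 155 FPKM). With interval midpoints the log2 ratio would be −2.02. *Atp5l* (subunit g), its partner in pairing, was at 247 and 315 FPKM (log2 ratio 0.35), and *Atp5j2* (subunit f) at 234 and 249.6 FPKM (log2 ratio 0.09). The peripheral stalk, which holds the head still, summed to 756 and 792 FPKM (1.05-fold) over its 4 genes. *Atp5o*, the subunit at its tip, was at 206 and 254 FPKM (log2 ratio 0.30), whereas *Atp5f1* (0.07), *Atp5h* (319 and 308 FPKM, −0.05) and *Atp5j* (−0.07) were near level.

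The confidence intervals that Cufflinks gives often left out the value they belong to. The FPKM was inside its own interval in both libraries for 28 of 82 respiratory chain genes (34.1%), against 85.2% of all compared genes. The share was 38.3% for cytoplasmic and 52.7% for mitochondrial ribosomal protein genes. It was 47.1% for citric acid cycle, 56.25% for import and 62.5% for glycolytic genes. Assembly factors (75%), genes of mitochondrial DNA expression (90.9%) and regulators (100%) had higher shares. Among the respiratory chain genes, FPKM was outside in both libraries for 27 and in the control alone for 19, with median log2 ratios of 0.02 and 0.22. It was outside in the mutant alone for 8 (0.35). The 28 genes inside in both had a median of 0.24. Values outside were mostly too high for their interval. The control FPKM was at a median of 1.52 times its midpoint in the 19 genes outside in the control alone. In the 8 outside in the mutant alone, the mutant FPKM was at 1.38 times its midpoint. In the 27 outside in both, the median was 1.43 in each library. Of the 8 genes past 1.5-fold, 5 were inside in both libraries (*Cox6b2*, *Ndufa7*, *Uqcrq*, *Ndufv3* and *Ndufa11*). Many nuclear respiratory chain genes have processed copies in the genome, and how reads were divided between gene and copy cannot be read from the tables. With interval midpoints, 13 of the 82 ratios moved by more than 1.5-fold. Besides *Ndufa3*, *Cox5b*, *Cox7a1*, *Cox8b* and *Atp5k*, these were *Ndufa4* (0.92), *Ndufa12* (0.95), *Uqcr10* (1.21), *Cox6b1* (1.23), *Cox6c* (0.59, from −0.14), *Cox7c* (1.13), *Atp5l* (1.05) and *Atp5j2* (0.87).

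Base composition moved with the ratio, and length less so. Among other compared genes, the median log2 ratio was −0.12 for transcripts with up to 42% GC and 0.26 for those above 60%. The respiratory chain transcripts were short, with a median of 659 bases against 2214.5 over all compared genes, and had a median GC content of 52.5% against 51.1%. Across genes, Spearman's rho of the log2 ratio with GC was 0.33 over 81 respiratory chain genes and 0.21 over 12781 compared genes, and that with length was −0.27 and −0.054. Among transcripts of up to 1000 bases, the median was 0.26 for 63 respiratory chain genes and 0.10 for 2198 other genes. With GC above 51% as well, it was 0.31 for 41 respiratory chain genes and 0.18 for 1380 others. When each ratio was centred on the compared genes of like GC content, the median over the respiratory chain genes was 0.12. The part of base composition, length and depth in these ratios was not tested.

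**Figure D4:**
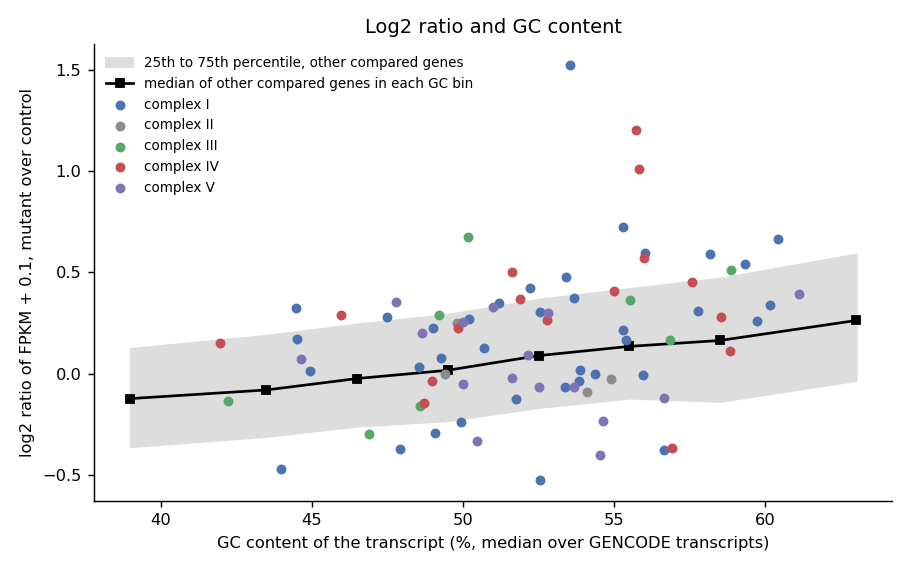
Log2 ratio of mutant to control against the GC content of the transcript (%) for the respiratory chain genes, coloured by complex. The black line and grey band are the median and the 25th to 75th percentile of other compared genes in bins of GC content, and the median climbs from −0.12 to 0.26 from left to right.

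By position in the genome, the medians differed between chromosomes. Of the 8 genes past 1.5-fold, 6 were on chromosomes 7 (*Ndufa3*, *Cox6b2* and *Cox8b*) and 17 (*Ndufa7*, *Ndufv3* and *Ndufa11*). The direction of *Cox8b* is not settled, and the share of all compared genes past 1.5-fold was not computed by chromosome. The 9 respiratory chain genes of chromosome 7 had a median log2 ratio of 0.41, against 0.14 for the 1089 other compared genes there. The 6 of chromosome 17 had a median of 0.46, against 0.07 for 698 others, and the 6 of chromosome 13, which carries both *Ndufs6* and *Ndufs4*, had a median of −0.15, against −0.0031 for 508 others. These chromosomes were picked by their extreme genes. Like medians were found on chromosomes 8 (0.45, 3 genes), 10 (0.37, 6 genes) and 11 (0.35, 4 genes), and on chromosome 2 (−0.13, 6 genes). Spans of 14 respiratory chain genes overlap another named row, and *Ndufs5* shares a merged row with *BC002163*. Of 42 pairs of such a gene with a compared neighbour within 1000 bases, 19 had ratios of the same sign.

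Genes that build, supply and regulate the chain were listed beside the subunits. For 13 genes encoded by mitochondrial DNA there is no value among those used, and they were not analysed here. The 11 nuclear subunits and carriers that the name rule misses had a median log2 ratio of 0.02, against 0.05 over all compared genes. Of the 11, 9 were higher in the mutant (81.8%, against 54.6% of all compared genes), and the sum was 1.14-fold higher. The subunits among them, *Ndufab1* (0.28), *Cyc1* (0.24) and *Usmg5* (0.37), were above the ADP and phosphate carriers *Slc25a4* (0.02), *Slc25a5* (−0.04) and *Slc25a3* (0.01). *Atpif1*, the inhibitor of ATP synthase, was the highest of them (141 and 235 FPKM, log2 ratio 0.74), and *Cycs*, cytochrome c, which carries electrons from complex III to IV, the lowest (25.1 and 17.1 FPKM, log2 ratio −0.55).

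Assembly factors, which help to build the complexes but do not stay in them, were far less abundant, with a median near 10 FPKM (10.4 in the control against 10.2 in the mutant). Over 36 of them the median log2 ratio was 0.04, 22 were higher (61.1%), and the sum was 1.15-fold higher. Past 1.5-fold, 4 were higher and 2 lower (11.1% and 5.56%, against 15.4% and 8.52% of all compared genes). *Cox20*, which guides a mitochondrially encoded subunit of complex IV, was at 10.7 FPKM in the control against 55.4 FPKM in the mutant (log2 ratio 2.36), and *Ndufaf4*, of complex I, at 3.02 and 11.2 FPKM (log2 ratio 1.85). *Atpaf2* (10.3 and 21.8 FPKM, log2 ratio 1.07) and *Lyrm7* (1.25 and 2.18, 0.76) were also higher. *Cox16* was lower, at 19.7 and 7.34 FPKM (log2 ratio −1.41), and so was *Acad9* (14.0 and 8.67, −0.69). *Cox20* and *Cox16*, both factors of complex IV, thus had ratios of opposite sign. On the deposited values, each lay outside the range of the 82 compared respiratory chain genes. The mutant value of *Cox20* lay above its own interval (35.3 to 42.6 FPKM), as did that of *Atpaf2* (13.6 to 17.7 FPKM). With interval midpoints, *Cox8b* was at −3.56 and *Ndufa3* at 2.72, and midpoint ratios of assembly factors are not given here.

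Genes that copy, transcribe and maintain mitochondrial DNA were mostly lower in the mutant, with 9 of 11 lower and a median log2 ratio of −0.16. *Lrpprc*, which stabilises mitochondrial mRNA, was the lowest (16.3 and 8.30 FPKM, log2 ratio −0.96), and *Polrmt*, the mitochondrial RNA polymerase, the highest (4.52 and 5.23 FPKM, log2 ratio 0.21). Among 8 regulators of nuclear respiratory genes, 7 were higher, with a median of 0.08. Over all compared genes, 54.6% were higher and the median was 0.05. *Gabpa* (0.03), *Yy1* (0.05), *Nrf1* (0.05) and *Gabpb1* (0.11) were close to level. *Esrra* (6.66 and 9.75 FPKM, 0.54) and *Ppargc1a* (1.51 and 2.13 FPKM, 0.47) were higher in the mutant. *Ppargc1b*, a coactivator, was at 0.640 and 1.35 FPKM (log2 ratio 0.97), and *Pprc1*, a relative, had the lowest ratio (5.02 and 4.62 FPKM, −0.12).

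Other pathways of energy supply gave a reference. The 17 citric acid cycle genes had a median log2 ratio of 0.02, with *Idh2* (58.7 and 91.5 FPKM, 0.64) as the highest and *Dld* (27.7 and 24.9 FPKM, −0.15) as the lowest. The control interval of *Idh2* ran from 49.0 to 14105 FPKM, so that its direction is not settled by these values. For 16 import genes the median was 0.00, from *Timm9* (20.4 and 16.2 FPKM, −0.33) to *Timm8b* (83.7 and 121 FPKM, 0.53). The 16 glycolytic genes had a median of 0.27, above that of the respiratory chain genes. *Ldhb*, which favours the use of lactate, was at 94.6 and 152 FPKM (log2 ratio 0.68), and *Pfkp*, a form of phosphofructokinase, at 20.7 and 13.6 FPKM (log2 ratio −0.60).

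Cytoplasmic ribosomal protein genes, which like the respiratory chain genes are short and highly expressed, gave similar figures. The 81 compared had a median log2 ratio of 0.15, with 58 higher (71.6%). Past 1.5-fold, 7 were higher and 3 lower (8.64% and 3.70%, against 15.4% and 8.52% of all compared genes). *Rpsa* was the highest (424 and 846 FPKM, 0.995), and the others included *Rps26* (0.86), *Rps4l* (0.71), *Rpl28* (0.69), *Rpl17* (0.63) and *Rps15* (0.63). *Rpl22l1* was the lowest (104 and 33.6 FPKM, −1.62), before *Rpl27* (−0.69) and *Rps27a* (−0.60). Many of these genes have processed copies in the genome, between which the counting may have divided reads. The 74 genes of the mitochondrial ribosome were less abundant, with a median of 21.6 FPKM in the control. Their median log2 ratio was 0.07 and 56.8% were higher, close to all compared genes (0.05 and 54.6%). *Mrpl39* (13.2 and 22.8 FPKM, 0.78), *Mrps34* (0.62) and *Mrpl23* (0.59) were higher past 1.5-fold and *Mrpl15* (98.4 and 6.67 FPKM, −3.86) lower.

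**Figure D5:**
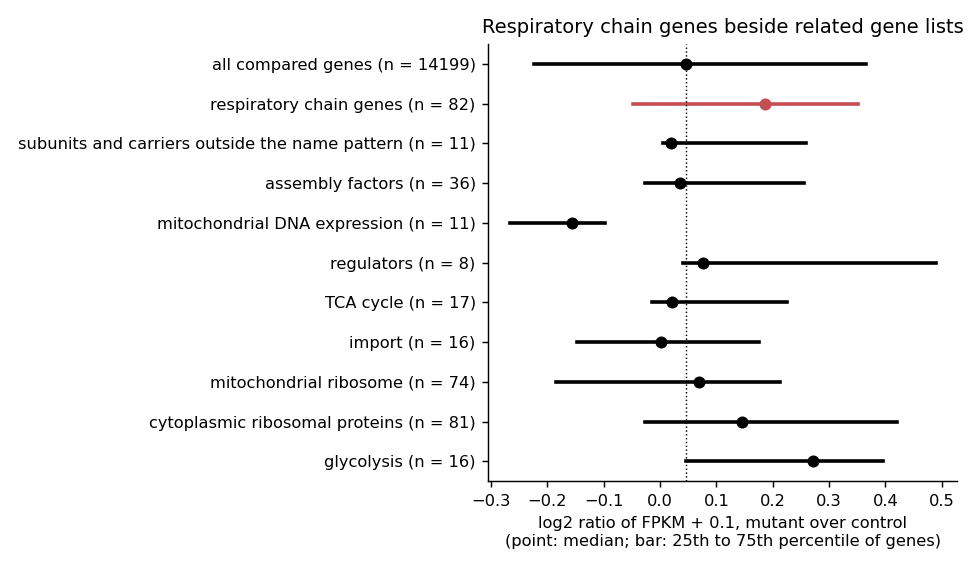
Median (point) and 25th to 75th percentile over genes (bar) of the log2 ratio of mutant to control for the respiratory chain genes (red) and related gene lists, with the median of all compared genes as a dotted line. Glycolysis has the highest median (0.27) and mitochondrial DNA expression the lowest (−0.16), with the respiratory chain genes at 0.19.

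By median log2 ratio, markers of most other cell types moved less than those of OLs (−0.83), but those of neurons (0.94) and blood (1.25) moved more. By the log2 ratio of sums, neurons (0.58) moved less than OLs (−0.80), and blood (1.3) still more. The neuronal median rests on genes of low level, such as *Rbfox3* (0.658 and 1.51 FPKM) and *Syt1* (1.07 and 3.64). *Nefl*, the most abundant of the 4, had a log2 ratio of 0.25. The 4 neuronal markers were all higher in the mutant (a sum of 20.6 FPKM in the control against 30.9 FPKM in the mutant), as were the 4 fibroblast markers (762 and 1073 FPKM). Of 4 astrocyte markers 3 were higher (4595 and 5257 FPKM), and of 4 microglial markers also 3 (82.5 and 92.7 FPKM). Sums were lower for the 2 OL precursor markers (45.8 and 41.7 FPKM), the 3 endothelial markers (98.4 and 86.3 FPKM) and the 6 markers of pericytes and smooth muscle (108 and 91.5 FPKM). Both precursor markers were lower on the deposited values, *Cspg4* with a log2 ratio of −0.30 and *Pdgfra* with −0.09. The mutant interval of *Pdgfra* reached 161.1 FPKM, against a control value of 35.9 FPKM, so that its direction is not settled. The other 2 groups with lower sums were mixed. Of the endothelial markers, *Cdh5* was higher (20.9 and 31.6 FPKM, log2 ratio 0.59), and of the pericyte and smooth muscle markers 3 were higher and 3 lower. All 4 photoreceptor markers were below 1 FPKM in both libraries, and of the fat markers *Ucp1* was at 0.277 and 0 FPKM and *Cidea* at 7.62 and 11.1 FPKM. The part of these shifts in the ratios of respiratory chain genes was not tested.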

How the data were processed

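RNA-seq libraries from P12 optic nerves, 1 control and 1 *Tcf7l2*ΔHMG, were sequenced on a HiSeq 2000. After mapping with TopHat, the authors made the deposited FPKM values with Cufflinks, giving a confidence interval and a status for each row. The submitters' processing notes name mm9, and the software versions are not given in the sources used here. Starts of rows are printed counted from 1. Depth was read from the interval bounds of short unnamed rows, which fall on whole multiples of 1 fragment. Of all FPKM, 70.7% (control) and 80.7% (mutant) fell in unnamed rows.

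Symbols were summed over rows and joined, and genes were compared where the status was OK in each library and 1 or both values reached 1 FPKM. With 1 library per genotype no test was run. GC content and length are medians over GENCODE M21 transcripts, matched by symbol for 81 of the 82 compared respiratory chain genes. The members and lists were chosen with earlier results of these data known. Genes named were those past 1.5-fold, the 3 most abundant and the highest and lowest ratio of each complex, paralogous forms, Sdh genes, complex I core subunits, genes not compared, the extremes of the other lists and *Tcf7l2*. The remaining members, and neighbours of members, were named after their values were seen. A few genes covered by the rule are not reported here. Alternatives were pseudocounts of 1 and 0.01, other filters, other scalings, rows of any status, the highest row per symbol, no merged rows, a fold change above 2 and intervals that do not overlap. Interval midpoints, genes inside their intervals and centring by GC content were added after seeing the data. The computation was tested on simulated data. The scripts ran in Python 3.11.15 (pandas 2.3.3, numpy 2.4.6, matplotlib 3.10.9, scipy 1.17.1).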

Additional observations from a re-analysis of the deposited data

How the results depend on the processing

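The scaling that changed the directions was rescaling all rows, unnamed ones included, to a common sum of 1000000. It moved the median log2 ratio of all compared genes from 0.05 to −0.61, and that of the respiratory chain genes from 0.19 to −0.49 (complex I −0.45, II −0.68, III −0.44, IV −0.37, V −0.60), with 1 gene above and 33 below 1.5-fold, while the distance to all compared genes stayed close (0.14 and 0.12). *Ndufa11* (−0.078), *Ndufa13* (−0.0057) and *Ndufv3* (−0.075) then changed sign among the genes past 1.5-fold, and over all 82 the number higher went from 54 to 5. Unnamed rows took a larger share of FPKM in the mutant. Rescaling named rows only gave a median of 0.12 and 1 gene lower past 1.5-fold. A fold change above 2 left 3 genes higher. Interval midpoints gave 0.40 for complex IV, 19 genes higher and 2 lower past 1.5-fold, and −3.56 for *Cox8b*, and turned the share of genes higher (23.2%) above that of all compared genes (15.8%). Genes inside their intervals in both libraries gave 0.48 for complex III, which rests on 2 genes and passes complex IV, and 0.23 for complex V, with 5 genes higher. Centring by GC content gave 0.094 for complex I and −0.033 for complex V, with 5 genes higher and 1 lower. The cause of these shifts was not tested. The median of the respiratory chain genes was above that of all compared genes under every alternative run. Many of these could not change that order. Rescaling a library moves both medians alike apart from the pseudocount, which also keeps the distance between them close. The alternatives of fold change and of intervals that do not overlap leave the ratios as they were. No paired analysis was possible because each genotype had 1 library, and no replicate could be left out. Variation between animals is unknown, and genes at a few FPKM rest on fewer fragments in the control.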
